A study of Mus musculus with 26 samples.

Results

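Aδ low-threshold mechanoreceptors (Aδ-LTMRs), lightly myelinated hair follicle afferents of the dorsal root ganglion, were compared with 7 other subtypes of somatosensory neuron from adult mice. They were taken as the 3 libraries that the labels assign to that subtype, of 26 libraries in all, and were set against the mean of the other 7 subtypes with each subtype weighted alike. Neurons labelled by a fluorescent reporter were sorted from dissociated ganglia, and their RNA was amplified and sequenced. All mice were at postnatal day 23 or older, and each library pooled cells of several mice and sorting rounds, so that p-values measure the spread between pools. The Aδ-LTMRs came from TrkBCreER;R26tdtomato(Ai14) mice given 2 mg of tamoxifen a day on embryonic days 12 to 13, so a Cre driven from the gene of the neurotrophin receptor TrkB at that age decided which cells were labelled. The reporter was MrgD-EGFP in nonpeptidergic nociceptors, CGRP-GFP in the peptidergic ones and Npy2r-GFP in the rapidly adapting Aβ RA-LTMRs, all without tamoxifen. C-LTMRs were ThCreER;R26tdtomato(Ai14) with 2 mg a day from postnatal day 13, and proprioceptors were PVIRESCre;R26tdtomato(Ai14). The slowly adapting Aβ SA1-LTMRs and the Aβ Field-LTMRs both carried TrkCCreER;Retf(GFP), an allele pair in which GFP replaces a copy of Ret, with 3 mg a day in mid-gestation, at E12.5, for the first and 2 mg a day from postnatal day 13 for the second. Proprioceptors came from thoracic ganglia and the other subtypes from all axial levels, and these differences of allele, tamoxifen and ganglion cannot be told apart from subtype. Aβ RA-LTMRs had 5 libraries, and every remaining subtype had 3.

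Aδ-LTMRs end as lanceolate fibres around hair follicles and respond to gentle deflection of hairs, with a preference for direction of movement. TrkB, encoded by Ntrk2, is the receptor for brain-derived neurotrophic factor, and the T-type calcium channel Cav3.2, encoded by Cacna1h, is known to lower the threshold of these endings. Ion channels, transmitter receptors, transcription factors and adhesion proteins set how such neurons fire, how they are modulated and where their endings form.

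The 3 Aδ-LTMR libraries were not alike, and this bears on every result below. Libraries 1 and 2 held 32788086 and 29482263 counts, had reads of 15 to 51 bases, a range that no other library had, and mapped at 61.4% and 74.5%. Library 3 held 53150135 counts, had reads of 15 to 50 bases, as did libraries of 6 other subtypes, and mapped at 93.8%. Over the genes tested, log2 levels of libraries 1 and 2 correlated at 0.98, library 3 with them at 0.95 and 0.96, and library 3 with its closest library of another subtype, an Aβ RA-LTMR one, at 0.95. Results are therefore given per library. Library 3 was also compared alone with the 6 subtypes that have libraries of 15 to 50 bases, called the matched comparison below. In that comparison the spread comes from the other groups. It leaves out Aβ SA1-LTMRs and Aβ RA-LTMR libraries 1 to 3, which had reads of 25 to 50 bases. Levels are CPM, library counts scaled to a common total after adjustment of library size.

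Of 17411 genes tested, 1787 (10.3%) were raised in Aδ-LTMRs against the mean of the other subtypes and 241 (1.38%) were lowered, at an adjusted p under 0.05 in edgeR's quasi-likelihood test and a log2 fold change of at least 1. Calculated in the same way, from partly shared libraries, the other subtypes had 440 to 2948 lowered genes, so 241 was the lowest of the 8 counts. Against single subtypes, the raised and lowered shares were 20.3% and 11.7% for nonpeptidergic nociceptors, 10.6% and 7.24% for peptidergic nociceptors, and 12.1% and 6.54% for C-LTMRs. They were 13.5% and 5.13% for Aβ SA1-LTMRs, 9.51% and 5.78% for proprioceptors, 8.28% and 2.72% for Aβ RA-LTMRs, and 6.05% and 3.53% for Aβ Field-LTMRs. The 2 subtypes with the fewest differences from Aδ-LTMRs were thus Aβ Field- and Aβ RA-LTMRs, the latter with the smallest lowered share. Their counts of called genes, 1914 for Aβ RA- and 1668 for Aβ Field-LTMRs, were 1268 without Aδ-LTMR library 2 and 1033 without Aβ Field-LTMR library 3. Without Aδ-LTMR library 1 there were 1313 raised genes, without library 2 1363, and without library 3 2041. The lowered count was 147 without library 2 and 476 without library 3.

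Few of these genes set Aδ-LTMRs apart from every other subtype. Of the 1787 raised genes, 471 also passed against 3 of the 7 subtypes, the most common number, 156 against 6, and 86 (0.494% of genes tested) against all 7. Among the 156, the subtype that did not differ was Aβ Field in 42, C-LTMR in 31, Aβ RA in 29, proprioceptor in 29, peptidergic nociceptor in 11, nonpeptidergic nociceptor in 8 and Aβ SA1 in 6. Of the 241 lowered genes, 4 (0.023% of genes tested) passed against all 7, or 9 without library 3, and the share that passed against Aβ RA-LTMRs was 29.5%, the lowest of the 7, against 73.4% for peptidergic nociceptors. The count of 86 was 48 without Aδ-LTMR library 1, 42 without library 2 and 165 without library 3, and 25 genes passed against all 6 subtypes in the matched comparison. Every Aδ-LTMR library stood above all 23 others in 174 genes (0.999%), 167 of them raised (0.959%), and below them all in 40 (0.23%), 17 of them lowered (0.0976%). Without library 3 these counts were 715 and 147, and without library 1 the lowered one was 30.

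**Figure D1:**
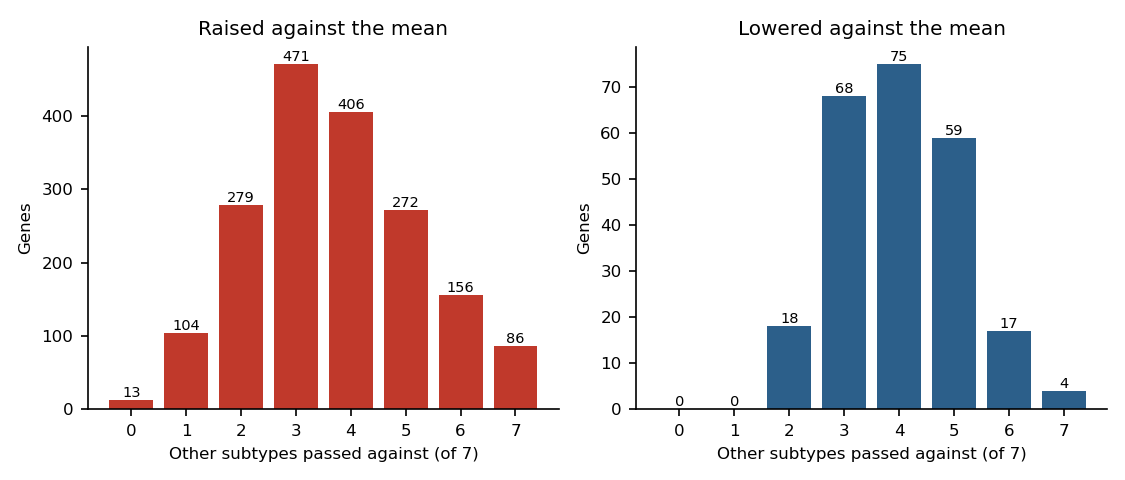
Number of genes (y axis) raised, on the left, or lowered, on the right, in Aδ-LTMRs against the mean of the other 7 subtypes, by the number of single subtypes against which the gene also passed (x axis). The raised genes peak at 471 genes that passed against 3 subtypes and end at 86 that passed against all 7, and 4 of the lowered genes passed against all 7.

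The markers listed for Aδ-LTMRs were raised. Their list was drawn up with earlier results of these data known, so this was not an independent test. All 7 listed Aδ-LTMR markers were raised against the mean, with a median log2 fold change of 4.37 against 0.06 over all genes tested, and all 7 were also raised in the matched comparison, in which 6.95% of genes were raised and 1.88% lowered. Ntrk2 (chr13:58806569-59133970, mm10) stood at 501, 643.5 and 424 CPM in libraries 1 to 3. Those levels overlapped Aβ RA-LTMRs, which averaged 440 CPM, and lay above every library of the other 6 subtypes. Ntrk2 was 2.14 ± 0.13 (SE) log2 units above the mean of the 7 (adjusted p = 6.9e-12) and 0.25 above Aβ RA-LTMRs (adjusted p = 0.377), so the gene that labelled the cells did not separate them from that subtype.

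Cacna1h (chr17:25374285-25433783) stood at 169.5, 256 and 268 CPM, above all 23 other libraries, of which the highest had 111. Its smallest difference from another subtype was 1.16 ± 0.30 (SE) log2 units, against C-LTMRs at 104 CPM (adjusted p = 0.00498). Nxpe2 (chr9:48318006-48353454), which encodes a member of the neurexophilin and PC-esterase family, stood at 34.0, 45.3 and 72.9 CPM. C-LTMRs were at 89.1 CPM and no other subtype averaged above 1.72, so the level was shared with C-LTMRs alone. Nxpe2 was 5.06 ± 0.25 above the mean (adjusted p = 9.2e-14), and its difference from C-LTMRs of -0.81 did not pass (adjusted p = 0.157).

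Cadps2 (chr6:23262773-23839421), whose product primes dense-core vesicles for release, stood at 446, 601.5 and 553 CPM. The highest of the other 23 libraries had 129 CPM, and the smallest difference, against Aβ RA-LTMRs, was 2.28 ± 0.26 log2 units (adjusted p = 8.9e-07). Colq, the collagen tail of acetylcholinesterase, stood at 9.72, 14.8 and 25.5 CPM (4.71 ± 0.38 above the mean), with Aβ RA-LTMRs next at 5.66 CPM. Necab2, a neuronal calcium-binding protein, stood at 27.2, 46.9 and 73.5 CPM (3.74 ± 0.22), with C-LTMRs next at 20.7 CPM. Every Aδ-LTMR library was above every other library for all 3 of these genes. Ldhb, a lactate dehydrogenase subunit, was raised against the mean by 1.39 ± 0.19 but lay under proprioceptors (184, 195.5 and 420.5 CPM against 464), and without library 3 its difference was 0.90 log2 units, under the threshold.

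Markers of the other subtypes were counted by class in Aδ-LTMRs, beside 10.3% of all genes raised and 1.38% lowered. Of 7 listed for each, 4 of Aβ RA-LTMRs, 3 of Aβ SA1- and Field-LTMRs and 1 of C-LTMRs were raised, and 1 of each Aβ list was lowered. None of the 7 listed markers of nonpeptidergic nociceptors, peptidergic nociceptors or proprioceptors was raised, and 1 of the first and 1 of the last were lowered. In lists this short, none or 1 raised is near the share of all genes. Mrgprd, the receptor that labels nonpeptidergic nociceptors, was at 35.4, 28.9 and 32.8 CPM against 1026 CPM there, and Calca, the precursor of CGRP, was at 175, 45.1 and 176 CPM against 3556 CPM in peptidergic nociceptors. Th, the tyrosine hydroxylase of C-LTMRs, was at 11.9, 6.91 and 26.1 CPM against 398 CPM, although in the matched comparison it was raised against the mean of the others (1.24, adjusted p = 0.00781), and Pvalb, the parvalbumin of proprioceptors, at 13.3, 13.2 and 24.1 CPM against 281 CPM. Ret, the receptor of the GDNF family that is known from nonpeptidergic and early Aβ neurons, was lowered by 1.31 ± 0.16 log2 units on average (206, 153 and 217 CPM, adjusted p = 6.4e-07), although proprioceptors were lower still at 88.3 CPM. Baiap2l1, listed for Aβ SA1- and Field-LTMRs, was above every other library in all 3 Aδ-LTMR libraries (218, 296 and 310 CPM, at most 193 elsewhere), so the data went against that placement.

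Among the 15 genes at 5 CPM or more with the largest smallest difference from another subtype were Adtrp, Akr1c14, Adra1a and Nr4a2, and the other 11 are given with the vascular transcripts. Adtrp (chr13:41763148-41847684), which encodes a membrane hydrolase of fatty acid esters, had 9.90, 18.7 and 16.9 CPM, and no other library was above 0.273. The smallest difference was 6.26 ± 0.88 log2 units, against C-LTMRs (adjusted p = 1.0e-05), and Aβ SA1-LTMRs had no counts. Adra1a (chr14:66635251-66771168), the α1A-adrenergic receptor, stood at 9.57, 16.0 and 6.42 CPM. The highest other library, of 1.57 CPM, was an Aβ RA-LTMR one, and the difference from that subtype was 3.25 ± 0.66 (adjusted p = 0.00122). Akr1c14 (chr13:4049011-4090688), an aldo-keto reductase that acts on steroids, stood at 9.60, 6.61 and 2.00 CPM, with no other library above 0.306, and its smallest difference was 5.20 ± 1.27 (adjusted p = 0.00342). This reductase has close copies beside it, between which reads may have been split. Its level fell from library 1 to library 3, as did the summed level of endothelial genes given below, and a link was not tested. Nr4a2, an orphan nuclear receptor of the immediate early kind, stood at 32.1, 37.2 and 15.9 CPM against at most 8.04 in any other library, with a smallest difference of 2.72 ± 0.47 (adjusted p = 0.00018).

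Further genes with all 3 libraries above the rest were chosen after their values were seen. Plk2, a polo-like kinase of synaptic scaling, was at 79.0, 109 and 113.6 CPM, and its smallest difference, from C-LTMRs, was 1.36 ± 0.19 log2 units (adjusted p = 7.2e-06). Slc6a19, a transporter of neutral amino acids, was at 38.5, 54.4 and 51.7 CPM, 1.55 ± 0.17 above Aβ RA-LTMRs, the nearest (adjusted p = 9.2e-07). Vgf, a secreted neuropeptide precursor, was at 48.6, 107 and 142 CPM, 1.43 ± 0.40 above nonpeptidergic nociceptors, the nearest (adjusted p = 0.00505). These 3 genes passed against all 7 subtypes, and Plk2 did so under each of the alternatives that was run. Sall4, a zinc finger transcription factor better known from embryonic cells, was at 3.35, 9.18 and 8.38 CPM with at most 2.75 in any other library, and Lhfpl2, a tetraspan membrane protein, was at 174, 201 and 141 CPM with at most 81.8. Tmem72 (149, 179 and 106 CPM), the vesicle GTPase gene Rab3b (36.1, 54.8 and 83.2 CPM) and Lypd1, a modulator of nicotinic receptors (56.8, 98.7 and 57.8 CPM), were raised against the mean by 3.71 ± 0.24, 3.91 ± 0.22 and 5.09 ± 0.34. In the matched comparison Adtrp, Slc6a19 and Vgf still passed against all 6 subtypes, while Adra1a (adjusted p = 0.119 against its nearest), Nr4a2 (0.109), Akr1c14 (0.0974), Sall4 (0.167) and Lhfpl2 (0.135) did not.

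**Figure D2:**
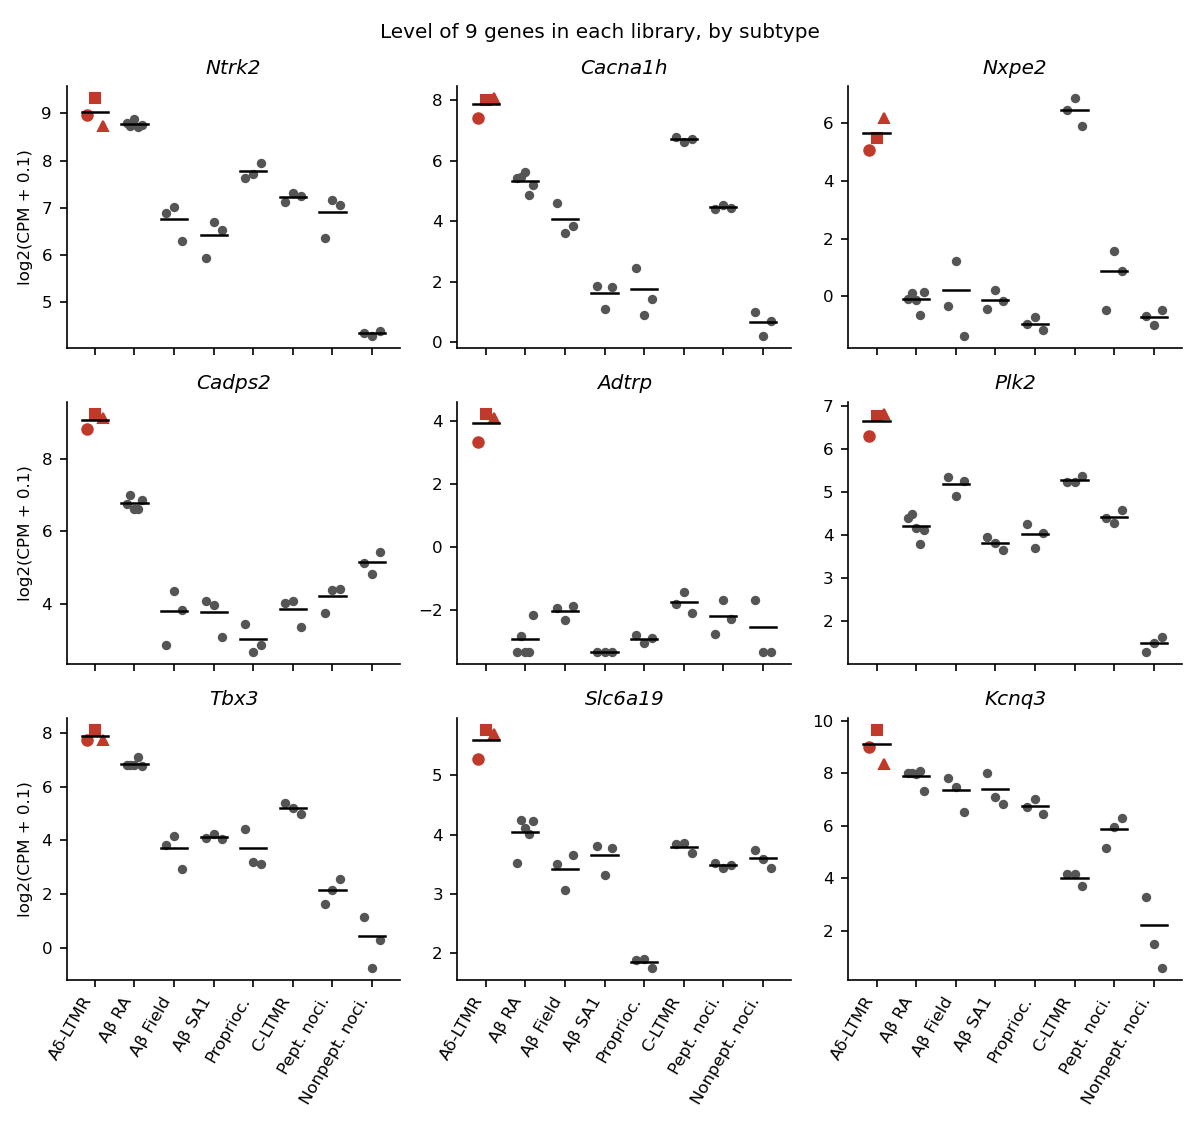
Level of 9 genes as log2(CPM + 0.1) (y axis) in each of the 26 libraries, grouped by subtype (x axis), where red symbols are Aδ-LTMR libraries 1 (circle), 2 (square) and 3 (triangle), grey points the other libraries and black bars the log2 of the subtype mean. The 3 red symbols lie above every grey point for each gene except Ntrk2, where Aβ RA-LTMRs overlap, and Nxpe2, where C-LTMRs average 89.1 CPM.

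A pair of genes that lie head to head on chromosome 13 was raised together, and the stretch between them is shown because it is the only DNA that separates their starts. Bhmt2 (chr13:93655720-93674302, minus strand), a methyltransferase that makes methionine, stood at 2.02, 4.01 and 4.46 CPM, and Dmgdh (chr13:93674433-93752833, plus strand), the mitochondrial dehydrogenase of the dimethylglycine that the related enzyme Bhmt gives off, at 1.54, 2.90 and 3.47 CPM. No other library was above 0.718 CPM for Bhmt2 or above 1.03 CPM for Dmgdh. The nearest subtype was Aβ RA-LTMRs for both, with smallest differences of 3.60 ± 1.04 and 2.13 ± 0.68 log2 units (adjusted p = 0.0163 and 0.0287). Without library 2 these lost the call (adjusted p = 0.0635 and 0.11), as did Bhmt2 without Aβ Field-LTMR library 1 (adjusted p = 0.0609). Dmgdh also lost it without library 3 (adjusted p = 0.0812) and without Aβ RA-LTMR library 1, 2, 4 or 5 (adjusted p = 0.0507, 0.0517, 0.0563 and 0.0519). Bhmt, beside Bhmt2, had no counts in Aδ-LTMRs. Jmy, beyond Bhmt, at 91.8 to 97.3 CPM, and Arsb, on the Dmgdh side, at 5.69 to 15.4 CPM, were not called. The rise was thus seen in Bhmt2 and Dmgdh, 2 of the 5 neighbours. The upstream stretches of Cadps2 and Adtrp, the genes with the largest smallest difference among listed markers and among all genes, are given beside it, cut where the annotated gene begins. All 3 are from the RefSeq table of build GRCm38.p6, with the plus strand for the first and the strand of the gene for the others, and capitals mark the GC box GGGCGG on either strand and the E-box CACGTG. The stretches were chosen after the values were seen.
Bhmt2 to Dmgdh, chr13:93674303-93674435: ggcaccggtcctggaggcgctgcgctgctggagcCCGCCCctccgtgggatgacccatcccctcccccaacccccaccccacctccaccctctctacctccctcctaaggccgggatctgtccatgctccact
Cadps2, chr6:23839422-23839671: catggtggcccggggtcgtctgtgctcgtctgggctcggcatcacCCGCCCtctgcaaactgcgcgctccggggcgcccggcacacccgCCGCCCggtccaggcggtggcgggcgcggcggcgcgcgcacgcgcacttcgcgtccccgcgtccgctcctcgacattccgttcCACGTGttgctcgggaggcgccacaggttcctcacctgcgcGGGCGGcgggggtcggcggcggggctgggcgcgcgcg
Adtrp, chr13:41847685-41847866: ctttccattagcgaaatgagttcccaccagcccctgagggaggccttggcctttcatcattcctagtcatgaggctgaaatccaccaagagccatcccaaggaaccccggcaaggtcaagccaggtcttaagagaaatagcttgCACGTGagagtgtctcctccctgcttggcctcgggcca

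The stretch between Bhmt2 and Dmgdh is 133 bases long, has 69.9% GC and holds a GC box, as do 27.5% of all windows of that length before a gene start. The 250 bases before Cadps2 have 78.0% GC and hold both motifs, of which the GC box occurs in 32.7% and the E-box in 6.02% of all windows of 250 bases. The 182 bases before Adtrp hold an E-box and no GC box, and 3.76% of windows of that length hold an E-box. Among the 86 genes raised against every subtype, 51 matched the promoter table, of which 26 (51%) held a GC box and 6 (11.8%) an E-box, beside 35.4% and 6.86% of 27025 genes. These matches describe letters in the windows and were not tested.

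Ion channels of excitability changed in both directions. Of 18 sodium channel genes tested, 5 were raised and 1 was lowered, with a median of 0.54 log2 units, beside 10.3% and 1.38% of all genes. In the matched comparison 5 were raised and 4 lowered at a median of -0.16, so the sign of the median turned. Scn1a, at 475, 447 and 297 CPM, and the β4 subunit gene Scn4b, at 231, 299 and 398 CPM, were raised against the mean by 1.35 ± 0.27 and 1.24 ± 0.18 at levels like those of the Aβ subtypes. Scn1a was not called in the matched comparison (1.28). Scn3a (16.3, 16.8 and 11.5 CPM) was raised by 1.57 ± 0.22 but lay under C-LTMRs at 37.9 CPM. The lowered member was Fgf14, an intracellular partner of sodium channels, at 1.13, 0.223 and 0.272 CPM (-2.32 ± 0.58, adjusted p = 0.00439), with Aβ SA1-LTMRs highest at 12 CPM.

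Among 43 voltage-gated potassium channel genes, 11 were raised and 6 lowered, with a median of 0.09, beside 10.3% and 1.38% of all genes. Kcnq3 (chr15:65986387-66286642), a subunit of the M-current, was at 509, 805 and 327 CPM, above all other libraries, of which the highest had 272, and 3.16 ± 0.27 above the mean (adjusted p = 4.7e-09). Kcnc2, a fast delayed rectifier at 38.2, 47.6 and 26.7 CPM, was raised by 2.13 ± 0.19 but lay under C-LTMRs (104 CPM) and peptidergic nociceptors (73.8 CPM). Kcnd2, a channel of A-type current, was at 12.1, 11.0 and 8.18 CPM (2.31 ± 0.38), overlapping Aβ RA-LTMRs at 8.31 CPM. The lowered members were Kcnip1, Kcnip2, Kcnip4, Dpp6, Kcnb2 and Kcnq5, of which the Kcnip genes and Dpp6 encode auxiliary subunits of A-type channels. Kcnip2 (10.9, 9.92 and 14.3 CPM), Kcnip1 (8.80, 2.75 and 6.44 CPM) and Dpp6 (79.0, 47.6 and 88.0 CPM) fell by 1.85 ± 0.29, 1.75 ± 0.39 and 1.75 ± 0.20 log2 units, and Kcnb2, a delayed rectifier (57.1, 46.0 and 50.4 CPM), fell by 1.23 ± 0.18. Kcnip1 was not called in the matched comparison (-1.54). Of the leak and other potassium channels, 5 of 25 were raised and none lowered, at a median of 0.44, and in the matched comparison 4 were raised and 1 lowered at a median of -0.05. Kcnk1 stood at 248, 283 and 295 CPM (2.44 ± 0.16), under proprioceptors at 317 CPM, and Kcnk18, known as TRESK, at 19.5, 34.1 and 22.5 CPM (2.48 ± 0.29), level with both nociceptor classes at 23.2 and 24.4 CPM.

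None of 16 mechanotransduction and acid-sensing channel genes and none of 14 TRP channel genes was raised, beside 10.3% of all genes, a share that amounts to few genes in lists of this size. In the matched comparison 1 of each list was raised, and 2 TRP genes were lowered. Asic1, an acid-sensing channel, was lowered by 1.52 ± 0.23 log2 units (18.2, 7.02 and 15.1 CPM, against 234 CPM in proprioceptors and 184 in Aβ SA1-LTMRs), and Trpc5 by 1.93 ± 0.43 (1.10, 0.855 and 1.47 CPM). Neither was called in the matched comparison, where they were at -0.95 and -1.33. That comparison holds no Aβ SA1-LTMRs, so the subtype at 184 CPM for Asic1 was not part of it. Of 27 nociception genes, 1 was raised and 4 were lowered at a median of -0.70, beside 0.06 over all genes, of which 1.38% were lowered. Without library 2, 2 were lowered, in the matched comparison 6, and with library 3 alone against all 7 subtypes 0. P2rx3, an ATP-gated channel of nociceptors, was at 23.7, 11.2 and 16.5 CPM against 447 CPM in nonpeptidergic nociceptors, but Aβ RA-LTMRs (5.36 CPM) and proprioceptors (4.81 CPM) were lower, and Calcb, the precursor of β-CGRP, at 23.4, 15.1 and 43.3 CPM. They fell by 1.22 ± 0.29 and 1.40 ± 0.29 against the mean, and Calcb was not called in the matched comparison (-0.87).

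Receptors for inhibitory and modulatory transmitters were raised in part. Of 16 GABA-A and glycine receptor genes, 5 were raised and none lowered, beside 10.3% and 1.38% of all genes. Their median was 0.88, or 0.71 with the 3 genes that had 3 or fewer counts in a subtype set to their bound. The GABA-A subunit genes Gabrb2 (73.1, 90.0 and 43.8 CPM), Gabrg1 (90.0, 78.3 and 37.0 CPM) and Gabra4 (7.94, 5.39 and 4.48 CPM) were raised by 3.36 ± 0.23, 2.86 ± 0.22 and 2.69 ± 0.31, at levels that overlapped or lay under those of Aβ RA-LTMRs (54.8, 95.4 and 13.0 CPM).

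Of 42 modulatory receptor genes, 10 were raised and 3 lowered at a median of 0.31, beside 10.3% and 1.38% of all genes. Without library 2, 1 was lowered, and in the matched comparison 9 were raised and 0 lowered at a median of 0.01. The raised ones included 6 of serotonin receptors, among them the G protein-coupled Htr7 (76.4, 69.7 and 26.2 CPM, 2.89 ± 0.21) and Htr1d (187, 236 and 178 CPM, 2.43 ± 0.18) and the ion channel subunits Htr3a (61.0, 88.2 and 173.5 CPM, 2.76 ± 0.36) and Htr3b (27.4, 34.5 and 37.7 CPM, 2.44 ± 0.21), with Htr1f and Htr2c besides. Another serotonin receptor gene, Htr2a, was lowered by 1.33 ± 0.27 (1.81, 1.49 and 2.13 CPM) and was not called in the matched comparison (-1.15). None of the 4 with values given passed against its nearest subtype, which was Aβ Field for Htr7, peptidergic nociceptors for Htr3a, Aβ RA for Htr3b and proprioceptors for Htr1d. P2ry1, a receptor for ADP, was at 379, 574 and 349 CPM (3.28 ± 0.15, adjusted p = 2.3e-14), shared with C-LTMRs at 742 CPM and at no more than 35.2 CPM on average elsewhere. Adora2a, an adenosine receptor, was at 5.87, 8.62 and 11.2 CPM (2.83 ± 0.25), with C-LTMRs next at 5.4 CPM.

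Of 25 genes of glutamate receptors and vesicular transporters, 6 were raised and 2 lowered at a median of 0.29, beside 10.3% and 1.38% of all genes. Slc17a7, the vesicular transporter VGLUT1, was at 101, 125 and 174 CPM (2.09 ± 0.18) and lay between the nociceptors and C-LTMRs, at no more than 6.62 CPM on average, and proprioceptors at 291 CPM. Grm4, a presynaptic metabotropic receptor, was at 51.2, 75.8 and 93.2 CPM (2.36 ± 0.17), and the kainate receptor gene Grik4 fell by 1.26 ± 0.24 (14.7, 6.50 and 13.7 CPM). Syt1, the calcium sensor of synaptic vesicles, was at 551, 657 and 537 CPM and 1.72 ± 0.13 above the mean (adjusted p = 2.1e-10). Its levels were in the range of nonpeptidergic nociceptors (643 CPM) and C-LTMRs (754 CPM) and above those of all 3 Aβ subtypes and proprioceptors (58.5 to 98.4 CPM), with peptidergic nociceptors between, at 295 CPM. Of 17 calcium-binding protein genes, 7 were raised and none lowered at a median of 0.67, beside the same shares of all genes. The 7 include Cadps2 and Necab2 above, and Calb1, calbindin, at 123, 81.4 and 80.7 CPM (3.18 ± 0.32), under Aβ RA-LTMRs at 371 CPM. Vsnl1, a neuronal calcium sensor, at 753, 1062 and 885 CPM (2.37 ± 0.19), was level with 3 of the Aβ and proprioceptor classes.

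Of 20 genes of TrkB ligands and partners, 5 were raised and none lowered at a median of 0.28, beside 10.3% and 1.38% of all genes. Shc4, an adaptor that docks on Trk receptors, stood at 37.3, 35.2 and 34.9 CPM, 2.54 ± 0.15 above the mean (adjusted p = 4.9e-12), with all 3 libraries above the highest other one, of 20.6 CPM. Sort1, a sorting receptor of neurotrophins, was at 99.5, 115 and 124 CPM (2.04 ± 0.17), level with proprioceptors at 99.7 CPM. Of 38 transcription factor genes, 9 were raised and 2 lowered at a median of 0.31, beside 10.3% and 1.38% of all genes. The lowered count was 0 without library 2 and 1 without library 3, Aβ SA1-LTMR library 1 or proprioceptor library 1, and the median was 0.08 in the matched comparison and -0.13 with library 3 alone. Tbx3 (chr5:119670669-119684724), a T-box repressor, was at 211, 276 and 212 CPM, above every other library, of which the highest had 135 (4.14 ± 0.20, adjusted p = 5.7e-14). Pou4f2, also known as Brn3b, was at 116, 116 and 74.0 CPM (2.59 ± 0.17), shared with C-LTMRs at 133 CPM. Shox2, a homeobox factor (60.1, 36.9 and 14.6 CPM, 2.88 ± 0.31), was at or under proprioceptors at 61.6 CPM.

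Of 56 genes of axon guidance and adhesion, 21 were raised and 1 was lowered, or 2 without library 3, beside 10.3% and 1.38% of all genes. Their median was 0.62, and 0.35 in the matched comparison. Ntng1, netrin-G1, was at 218, 225 and 182 CPM (3.16 ± 0.28), Lgi2, a secreted synaptic protein, at 52.9, 88.1 and 57.7 CPM (3.11 ± 0.20), and Cdh13, T-cadherin, at 30.4, 38.4 and 48.4 CPM (2.75 ± 0.16). Each was level with or under Aβ RA-LTMRs (340, 54.6 and 36.2 CPM). Nrp2, a semaphorin receptor, was at 199, 225 and 127 CPM (2.23 ± 0.22), next to Aβ Field-LTMRs at 141 CPM. The lowered member was Lrrtm3, a postsynaptic organiser, described below.

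Transcripts of blood vessels were raised along with these neuronal genes in all 3 Aδ-LTMR libraries. Over all genes tested, 10.3% were raised, and the median was 0.06. Of 16 endothelial genes, 15 were raised, at a median of 4.37, or 4.22 with 5 genes set to their bound, and 12 were raised in the matched comparison at a median of 3.06. Their summed level was 143, 99.7 and 65.9 CPM in libraries 1 to 3, and 5.85 to 24.5 CPM in the other 23 libraries, with a median of 10.8. The groups did not overlap, and library 3 was lowest of the 3. Flt1, the receptor 1 of vascular endothelial growth factor, was at 34.7, 20.4 and 9.66 CPM (5.52 ± 0.61, adjusted p = 2.4e-07), and the highest other library had 4.28 CPM. Cdh5, VE-cadherin, was at 10.3, 6.13 and 4.07 CPM (4.98 ± 0.59) and Slco1a4, an organic anion carrier of brain vessels, at 14.4, 7.39 and 3.59 CPM (5.51 ± 0.52). Pecam1 was at 8.74, 9.18 and 6.25 CPM (4.06 ± 0.39). In bulk samples of this kind, fewer cells of a type and less RNA per cell cannot be told apart.

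Of the 15 genes at 5 CPM or more with the largest smallest difference from another subtype, 3 were on the endothelial list, Flt1, Slco1a4 and Cdh5. The others besides Adtrp, Akr1c14, Adra1a and Nr4a2 were Cxcl12, Igfbp7, Slc39a8, Prom1, Cd93, Cyyr1, Rasgrp3 and Eltd1, which are on no list here. Igfbp7 stood at 18.8, 9.07 and 7.49 CPM (4.15 ± 0.42), Cyyr1 at 9.37, 6.06 and 2.13 CPM (5.36 ± 0.53), and the zinc carrier gene Slc39a8 at 30.4, 7.58 and 3.45 CPM (5.24 ± 0.53). Cxcl12, a chemokine, stood at 16.3, 13.4 and 8.50 CPM with at most 1.68 in any other library, and its smallest difference was 3.59 ± 0.78, from peptidergic nociceptors (adjusted p = 0.00128). With each library's mean log2 level of the endothelial genes as a covariate, 42 genes were raised and 11 lowered against the mean in place of 1787 and 241. The 3 highest values of that covariate were those of the Aδ-LTMR libraries, so it cannot be told apart from the subtype. Of 89 gene results against the mean given here, 75 had another call with it, among them those of Tbx3, Kcnq3, Colq, Necab2, Vgf, Nr4a2 and Chst15. Colq went from 4.71 to 4.46, Nr4a2 from 3.26 to 2.85 and Chst15 from -1.5 to -1.49. These 3 calls were lost on the adjusted p and not on the fold. Over all alternatives, the covariate included, Tbx3, Kcnq3, Necab2 and Vgf were at 2.8, 2.02, 3.32 and 2.17 or more. Igfbp7 went from 4.15 to 0.64 with the covariate and Slc39a8 from 5.24 to 0.25. Flt1 and Cdh5 stood at -2.64 and -1.45 with the covariate (adjusted p = 0.498 and 0.819 in edgeR's test). Both are members of that score, so the loss of their rise was built in. Cacna1h, Cadps2, Nxpe2, Ntrk2, Plk2 and Slc6a19 were among the 14 that kept their call.

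Genes of other non-neuronal cells were raised in part, beside 10.3% of all genes, whose median was 0.06. Of 11 pericyte and smooth muscle genes 8 were raised (median 2.66), with a summed level of 546, 279 and 186 CPM against a median of 23.5 in the other libraries. Most of that sum was Rgs5 (510, 261 and 162 CPM, 3.95 ± 0.67), which C-LTMRs held at 1273 CPM and which was not called in the matched comparison (2.86). Of 10 fibroblast genes 8 were raised (median 1.75) and of 10 genes of myelinating Schwann cells 7 (median 1.39), with summed levels of 65.7 to 92.7 CPM and 1509 to 2178 CPM, each inside the range of the other libraries. Mean log2 levels weight each gene of a list alike. For fibroblasts they were 2.17, 1.77 and 1.92 in libraries 1 to 3, above every other library (at most 1.34). For pericytes and smooth muscle they were 1.81, 0.79 and 1.21, also above every other library (at most 0.14). Schwann cell genes had 4, 2.32 and 3.87, with only library 2 inside the range of the others (at most 3.53). Without library 3, 3 Schwann cell genes were raised, and in the matched comparison 4. Of 12 genes of satellite glia 3 were raised, and their sum of 1465 to 2115 CPM lay inside the range of 352 to 4403. The macrophage list summed to 1.57 to 1.78 CPM, under the median of 1.87 elsewhere. The part of these cells in the neuronal results was not tested.

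**Figure D3:**
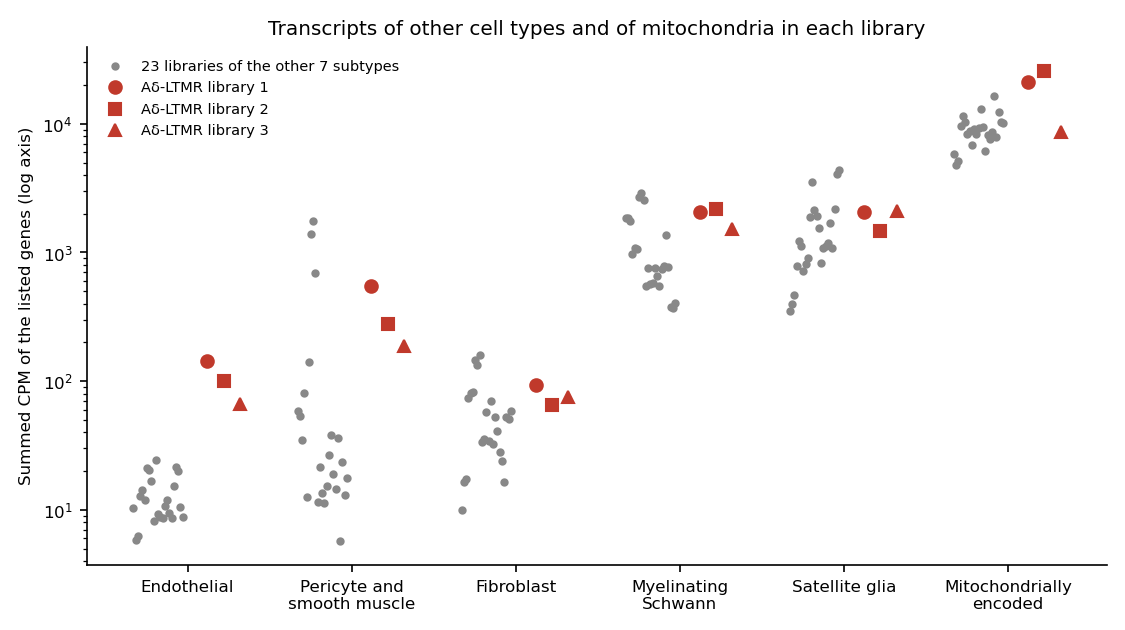
Summed CPM of the genes on 6 lists (x axis) in each library on a log axis (y axis), where grey points are the 23 libraries of the other subtypes and red symbols Aδ-LTMR libraries 1 to 3. The red symbols lie above all grey points for the endothelial list, at 143, 99.7 and 65.9 CPM. For the protein-coding mitochondrial genes library 3 falls among the grey points, unlike libraries 1 and 2.

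A second set of genes was raised in libraries 1 and 2 and not in library 3. Of the 1787 raised genes, 728 lay above every library of the other subtypes in library 1, 688 in library 2 and 358 in library 3. Libraries 1 and 2 but not 3 did so in 362, library 3 alone in 106, and library 3 was at least 2-fold under both others in 515. In the matched comparison 823 of them (46.1%) were raised and 243 were below 0. Of the 86 genes raised against every subtype, 68 had all 3 libraries above the rest and 17 (19.8%) libraries 1 and 2 but not 3, beside 20.3% of the 1787. Library 3 was at least 2-fold under both others in 27 (31.4%, beside 28.8%), while 73 were raised in the matched comparison and 2 were below 0 there.

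Examples of this split were chosen after their values were seen. Arl6ip6, a membrane protein that binds a small GTPase, was at 24.6, 47.2 and 3.92 CPM, with 2.17 to 8.42 CPM in the other 23 libraries, so library 3 was inside their range. Its difference from the mean was 2.50 ± 0.29 with all libraries and -0.19 in the matched comparison. Magee1 (900, 961 and 205 CPM) went from 1.69 ± 0.25 to -0.09, Sgms1, a sphingomyelin synthase (119, 115 and 21 CPM), from 2.20 ± 0.28 to 0.11, the chromatin protein gene Hmgn1 (31.1, 24.0 and 8.24 CPM) from 1.69 ± 0.27 to 0.23, and the nuclear receptor gene Nr2f2 (81.4, 55.3 and 15.9 CPM) from 1.99 ± 0.27 to 0.25. All 5 were among the 86. Neuronal genes did this too. Elavl4, an RNA-binding protein of neurons (766, 732 and 283 CPM), went from 1.05 ± 0.18 to -0.07 (and to 0.81 and 0.84, under the threshold, without library 1 or 2), and the potassium channel gene Kcna4 (52.6, 53.7 and 12.7 CPM) from 1.67 ± 0.30 to -0.40.

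Messages of the mitochondrial protein-coding genes followed the same division, but all mitochondrial genes together did not. Those held 21%, 26.3% and 26.9% of counts in libraries 1 to 3. The 13 protein-coding genes of the mitochondrial genome summed to 20930 and 25910 CPM in libraries 1 and 2 and to 8661 in library 3, with 4754 to 16440 elsewhere. In each Aδ-LTMR library 6 of the 13 had no counts, as did 4 to 6 of them in every other library. Of the 7 that were tested, 3 were raised with all libraries and none in the matched comparison, and their median went from 0.90 to -0.50. With all libraries, the raised share of all genes was 10.3%. The complex I subunit gene mt-Nd5 was at 6688, 8842 and 839 CPM (2.06 ± 0.36, and -0.75 matched) and mt-Nd6 at 2121, 3201 and 103 CPM (3.09 ± 0.48, and -1.38 matched). Among the Aδ-LTMR libraries, read length, mapping rate and any difference between pools go together and cannot be told apart. The sum of 16440 was that of Aβ Field-LTMR library 2, which had reads of 15 to 50 bases and mapped at 86.1%. The cause was not tested.

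**Figure D4:**
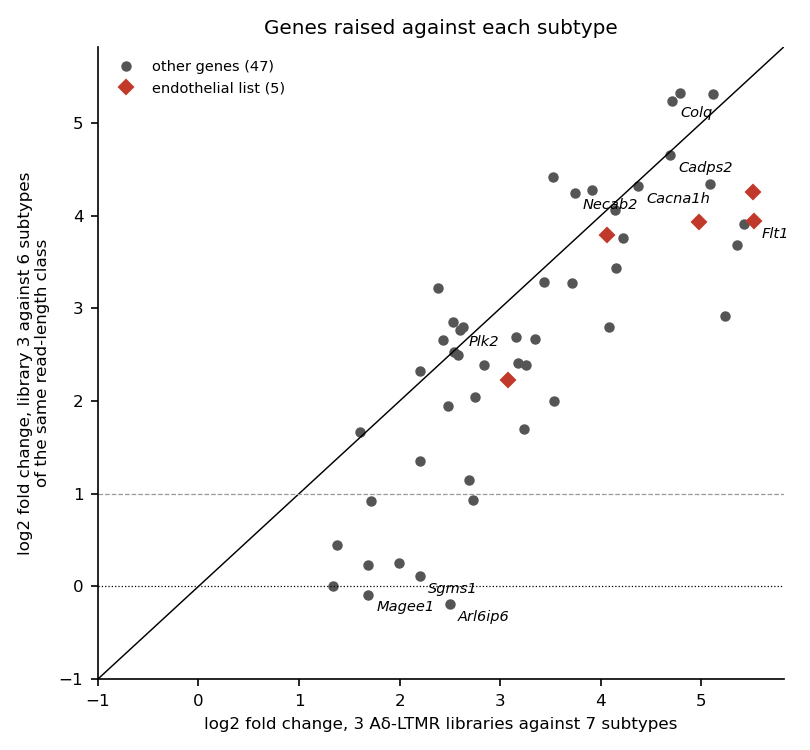
Each point is 1 of 52 genes raised against every other subtype, leaving out 34 with 3 or fewer counts in a subtype, by the log2 fold change of all 3 Aδ-LTMR libraries against the mean of 7 subtypes (x axis) and of library 3 alone against the mean of 6 in the matched comparison (y axis), with red diamonds for genes of the endothelial list and a solid line where the values are equal. Of the 52, 43 are above 1 on both axes and 39 are lower in the matched comparison, and Arl6ip6 at -0.19 and Magee1 at -0.09 are the points below the dotted line at 0.

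Lowered genes were few, and the 4 that fell below every other subtype were weakly expressed but for 1. Chst15 (chr7:132235780-132317228), a sulfotransferase of chondroitin sulfate chains, stood at 35.6, 35.5 and 38.8 CPM, while the other 23 libraries ran from 65.4 to 139 CPM. The 3 libraries lay close together and below every other one. Chst15 was 1.5 ± 0.15 log2 units under the mean (adjusted p = 4.0e-08), with its smallest difference from Aβ RA-LTMRs (-1.05 ± 0.16, adjusted p = 6.9e-05). Without Aβ RA-LTMR library 5 that difference was -0.98, short of the threshold on fold. Among the alternatives run, the call was also lost with a block for replicate number, the endothelial covariate and both fits on RPKM. H2-M3, a nonclassical histocompatibility gene with many relatives, was at 1.96, 0.632 and 0.989 CPM, with 2.00 to 9.23 elsewhere (-1.76 ± 0.31), and Dctd, a deaminase of deoxycytidylate, at 0.0593, 0.260 and 0.0582 CPM (-3.73 ± 0.57). Against their nearest subtypes they differed by -1.28 ± 0.36 (adjusted p = 0.00919) and -1.84 ± 0.63 (adjusted p = 0.0306). H2-M3 lost that call without library 2 (-1.02, adjusted p = 0.0535) and Dctd without library 1 (-1.57, adjusted p = 0.113) or 3 (-1.45, adjusted p = 0.138) and without C-LTMR library 1 (adjusted p = 0.0724) or 3 (adjusted p = 0.107). Ggt1, a γ-glutamyltransferase, had no counts in the 3 libraries, which allows up to 0.0267 CPM over the group, and 0.0306 to 0.526 CPM elsewhere.

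The genes that fell most against the mean, at 10 CPM or more elsewhere, were usually as low in Aβ RA-LTMRs. Adrbk2, a kinase of G protein-coupled receptors, was at 4.83, 2.23 and 3.32 CPM (-2.31 ± 0.27, adjusted p = 4.3e-07). Aβ RA-LTMRs had 2.96 CPM and the other 6 subtypes 12.9 to 55.2. Rspo2, a secreted enhancer of Wnt signalling (10.4, 4.94 and 5.55 CPM, -1.90 ± 0.29), Rcan1, an inhibitor of calcineurin (15.2, 7.80 and 14.8 CPM, -1.82 ± 0.23), and Tnr, the matrix protein tenascin-R (2.28, 0.817 and 0.776 CPM, -2.03 ± 0.34), had 6.09, 12.1 and 1.27 CPM in Aβ RA-LTMRs. Ina, the neurofilament protein α-internexin, was at 14.2, 6.76 and 10.1 CPM (-2.01 ± 0.35, adjusted p = 0.00012), near the Aβ subtypes at 5.28 to 14.5 CPM, and proprioceptors had 268 CPM. Kcnip2 was lower still in Aβ RA-LTMRs, at 4.65 CPM, and Tmem151b (9.99, 5.65 and 5.66 CPM, -1.78 ± 0.35) was level with all 3 Aβ subtypes.

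Slc29a4 and Lrrtm3 were below every other library in all 3 Aδ-LTMR libraries. Slc29a4, a carrier of monoamines, was at 6.34, 4.98 and 8.77 CPM, and every other library was at 10.6 CPM or more (-2.07 ± 0.21, adjusted p = 3.9e-08). Lrrtm3 was at 3.97, 3.57 and 4.69 CPM, and every other library was at 6.68 CPM or more (-1.83 ± 0.20, adjusted p = 1.2e-07). Each passed against 6 subtypes, with -0.95 against Aβ RA-LTMRs for Slc29a4 and -0.83 against peptidergic nociceptors for Lrrtm3 as the exception. Unc5b, a netrin receptor, was at 2.82, 1.82 and 1.96 CPM (-1.82 ± 0.25), with Aβ Field-LTMRs lower at 1.54 CPM.

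**Figure D5:**
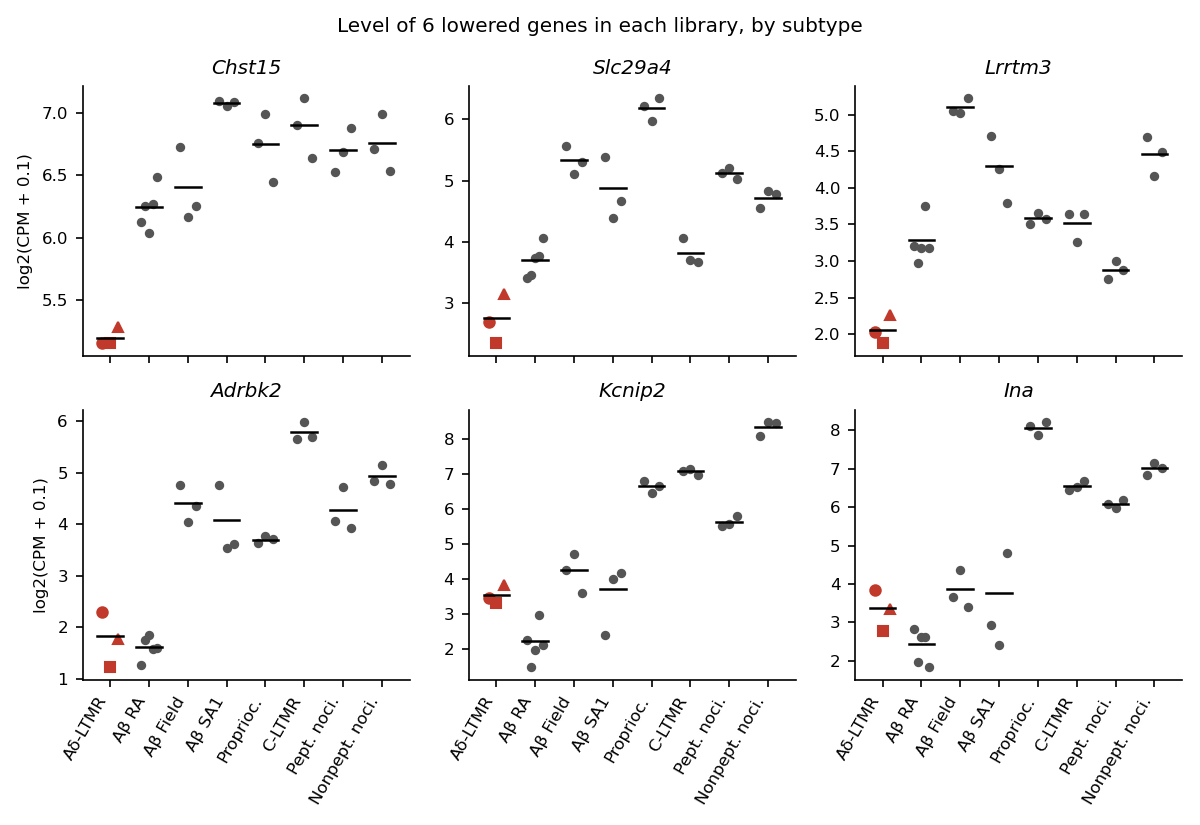
Level of 6 lowered genes as log2(CPM + 0.1) (y axis) in each library by subtype (x axis), with symbols as for the raised genes. The red symbols lie below every grey point for Chst15, Slc29a4 and Lrrtm3, and among or above the Aβ RA-LTMR points for Kcnip2 and Ina, while for Adrbk2 library 2 lies below them and the other red symbols do not.

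No gene met the rule for absence from Aδ-LTMRs. None had 3 or fewer counts over the 3 libraries and at least 5 CPM in another subtype, and leaving out library 1, 2 or 3 gave 2, 1 or 3 such genes. With a looser rule chosen after the values were seen, 49 genes were under 0.5 CPM in each Aδ-LTMR library and at 5 CPM or more in another subtype. Of these 17 were highest in nonpeptidergic nociceptors, 11 in C-LTMRs, 9 in peptidergic nociceptors, 5 in proprioceptors, 4 in Aβ Field-LTMRs, 3 in Aβ SA1-LTMRs and none in Aβ RA-LTMRs. Ms4a3, a membrane protein of the MS4A family, was at 0.415, 0.334 and 0.349 CPM against 34.4 CPM in nonpeptidergic nociceptors. Aβ RA-LTMRs were lower, at 0.0552 CPM. Slc51a, a subunit of a steroid and bile acid carrier, was at 0.385, 0 and 0.407 CPM against 14.4 CPM in C-LTMRs. No further subtype averaged above 0.23 CPM. Dlgap2, a scaffold protein of synapses, was at 0.415, 0.186 and 0.155 CPM against 12.54 CPM in Aβ Field-LTMRs. Syt17, a synaptotagmin, was at 0.296, 0.112 and 0.466 CPM against 11.1 CPM in Aβ SA1-LTMRs. Aβ RA-LTMRs had 0.125 CPM of Dlgap2, and nonpeptidergic nociceptors 0.0594 CPM of Syt17. Such low levels were thus not particular to Aδ-LTMRs. Against the mean Dlgap2 was lowered, and Ms4a3, Slc51a and Syt17 were not called.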

How the data were processed

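RNA of sorted neurons was measured in 26 libraries. Per the submitters' processing notes, the tools included FastQC 0.11.3, STAR, Cuffdiff, HTSeq 0.6.1 and DESeq2 1.14.1, with the mm10 build; which tool made which table is not given in the sources used here. The authors deposited whole-number counts per gene, an RPKM table, and an alignment summary with mapping and exonic rates as a fraction, GC content as a percent, a 5′ to 3′ bias ratio and counts of mapped reads. Counts were fitted here with edgeR 4.0.16 (quasi-likelihood test, TMM, filter on low counts, 8 groups, Benjamini-Hochberg adjustment) in R 4.3.3 and called at an adjusted p under 0.05 and a log2 fold change of at least 1; ± gives the SE. The fit was tested on simulated data. Gene positions came from GENCODE M21. The members and lists were chosen with earlier results of these data known. Named were the markers and reporter genes, the 15 genes at 5 CPM or more with the largest smallest raise over the subtypes, those lowered against each, the 10 largest rises and falls at 10 CPM or more, and up to 4 called members of a list per direction; others are said to be chosen later. DESeq2 1.42.0, limma 3.58.1 on log2(RPKM + 0.1) or + 1, other scalings, filters, covariates, the replicate block and single omissions were alternatives. Some genes that the rule names are not reported here.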

Additional observations from a re-analysis of the deposited data

Results flagged for a closer look

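Only the 5 Aβ RA-LTMR libraries were enough for a test of single outlying libraries, and 13 of 95 genes had a library whose gap to the next exceeded the critical value of 0.71 of the range. Chance gives about 1 in 20 groups. Library 5 was the highest for Ldhb (416.9 CPM), Kcnk1 (232.4 CPM), Flt1 (4.277 CPM), Hmgn1 (7.899 CPM) and H2-M3 (3.809 CPM), and the lowest for Kcnq3 (159.0 CPM) and Adra1a (0.1249 CPM). Library 4 was the highest for Tbx3 (135.2 CPM), Lrrtm3 (13.33 CPM) and P2rx3 (10.08 CPM). Library 2 was the lowest for Vgf (11.13 CPM) and the highest for Akr1c14 (0.1674 CPM), and library 1 the highest for Sgms1 (26.08 CPM).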

How the results depend on the processing

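The count of 1787 raised genes was 811 with a covariate for read-length class, 42 with one for the endothelial score and 698 with one for satellite glia, 1065 and 412 by limma on log2(RPKM + 0.1) and log2(RPKM + 1), and 907 with libraries 1 and 2 left out, an alternative chosen after seeing the data. For the 241 lowered genes, read-length class gave 156, the endothelial score 11, and the RPKM fits 371 and 149. The 86 genes raised against each subtype became 15, 1 and 19 with the 3 covariates, 25 in the matched comparison, 134 and 46 on RPKM, and 19 with library 3 alone. The 4 lowered against each became 0 with the endothelial score, 14 matched, 0 on log2(RPKM + 1) and 7 with library 3 alone. Leaving out 1 library at a time gave 1313 to 2041, 147 to 476, 42 to 165 and 3 to 9 for these 4 counts. The share of calls that were raised was 88.1%, and 74.2% and 73.4% on RPKM.

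With the endothelial score, called genes fell from 5560 to 2424 against nonpeptidergic nociceptors, 3113 to 1139 against peptidergic nociceptors, 3254 to 784 against C-LTMRs, 1914 to 79 against Aβ RA, 3249 to 147 against Aβ SA1, 1668 to 299 against Aβ Field and 2661 to 700 against proprioceptors. The glia score gave 1568 for nonpeptidergic nociceptors, 1796 for C-LTMRs and 1135 for Aβ SA1. Read-length class gave 343 for Aβ RA, 877 for Aβ SA1 and 1501 for proprioceptors, and library 3 alone 556, 1596 and 1330. The matched count for Aβ RA was 599. On log2(RPKM + 1) the counts were 3176 for nonpeptidergic nociceptors, 722 for Aβ RA, 1314 for Aβ SA1, 807 for Aβ Field and 1367 for proprioceptors. Single omissions gave 4899 to 6226, 2433 to 3407, 2651 to 3520, 1268 to 2841, 2495 to 4111, 1033 to 2104 and 2045 to 3761, in the order first given. The 167 raised genes with all libraries above the rest were 19 with the endothelial score, 522 matched, 89 on log2(RPKM + 1), 385 with library 3 alone and 169 to 715 in single omissions. The 17 lowered ones were 1, 134, 8, 68 and 15 to 147. The rule for absence gave 14 genes with library 3 alone and 0 to 3 in single omissions. The cause was not tested, beyond the fewer samples in the matched and library 3 fits.

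Signs turned for Elavl4 (-0.05 with read-length class, -0.07 matched, -0.55 on both RPKM scales, -0.03 with library 3 alone), mt-Nd5 (-0.58, -0.75 matched, -0.65 alone), mt-Nd6 (-1.05, -1.38, -1.06), Arl6ip6 (-0.16, -0.19, -0.19), Magee1 (-0.08, -0.09, -0.07) and Kcna4 (-0.40 matched). With the endothelial score, of which both genes are members, Flt1 was -2.64 and Cdh5 -1.45. The smallest differences of Akr1c14 and Cxcl12 were -0.46 and -0.05 with it. Of 89 gene results against the mean, 14 kept their call in all alternatives and 8 reversed in at least 1. The call changed for 75 with the endothelial score, 23 on log2(RPKM + 1), 7 on log2(RPKM + 0.1), 20 with library 3 alone, 19 with read-length class, 16 matched, 11 with the glia score and 1 with the mean over 23 libraries, and for 0 under other size factors, filters, DESeq2 or the block; 87 kept it in every single omission. Of 14 smallest raises 1 kept its call throughout, and of 3 smallest falls 0. DESeq2 changed 1 raise, and the replicate block 2 raises and 2 falls, those of Chst15 and Dctd.

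Replicate numbers did not pair the libraries: of 84 same-numbered pairs 4 correlated over 0.1 (-0.15 to 0.24), and 1 of 3 Aδ-LTMR libraries was closest to its own number. With the replicate block, 1757 genes were raised and 259 lowered against the mean, and 76 and 2 against each subtype.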
